A study of Mus musculus with 20 samples.

Results

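Irradiated mouse thymocytes labelled Gfi1 KO were compared with irradiated wild-type (WT) thymocytes, gene by gene, on expression arrays. The comparison holds 6 of the series' 20 arrays, chosen by their titles: 3 of KO irradiated thymocytes and 3 of WT irradiated thymocytes. Beside them stand 2 arrays of KO untreated thymocytes and 2 of WT untreated thymocytes, and the other 10 arrays are of thymic tumours. All mice were C57BL/6, and the only genetic change the labels give for the thymocytes is the loss of Gfi1. The sources used here give neither the knockout allele nor the radiation dose, the time between irradiation and harvest or the age of the mice. Separate mice are not stated for the arrays within a group, and the p-values measure only the spread between these arrays, which may be technical.

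GFI1 is a zinc finger protein that silences genes. It binds DNA through its zinc fingers, at sites with the core AAATCA, and its short SNAG domain recruits the histone demethylase LSD1 and histone deacetylases. In mice it is needed for neutrophil maturation, restrains blood stem cells from cycling and acts at several steps of T cell development in the thymus. Thymocytes are among the most radiation-sensitive cells of the body: DNA breaks stabilize p53, which switches on arrest and death genes, and most immature CD4+ CD8+ (double positive) cells die. The series asks how thymocyte expression changes with Gfi1 loss after irradiation and in tumours.

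Values are log2 signals of the deposited table, and a gene's level is the median of its probe sets, after each was centred on its mean. Differences are KO minus WT on that log2 scale, given with their standard error (SE). A gene was called if its adjusted p in limma, a linear model fitted across all genes, was below 0.05. A level is comparable between arrays for the same gene, not between genes. The arrays had alike overall signal, with medians over the genes tested between 9.21 and 9.35 in the 6 irradiated samples. Across genes, arrays of the same irradiated group correlated at 0.980 to 0.992 and arrays of different irradiated groups at 0.95 to 0.961. Levels of thymocyte markers are given as a description of the cell type label. They do not test it, since levels are not comparable between genes and no array from outside the thymus stands beside them. The mean level of the double positive stage genes was 11.72 to 11.78 on the KO irradiated arrays and 11.83 to 11.99 on the WT irradiated arrays, against means of 9.40 to 9.48 over all genes tested. The T cell receptor chain gene Cd3e had levels of 13.70, 13.77 and 13.81 in KO irradiated thymocytes, against 13.82, 13.85 and 13.87 in WT irradiated thymocytes, and the coreceptor gene Cd4 had levels of 12.85, 13.01 and 13.06 in KO irradiated thymocytes, against 13.16, 13.22 and 13.12 in WT irradiated thymocytes. The treatment label was checked on a list of 50 genes, p53 targets together with some other genes of the p53 pathway. Of these, 25 were higher and 9 lower in WT irradiated than in WT untreated thymocytes, where 13% of all genes tested were higher and 21.7% lower.

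Gfi1 itself is read by 8 probe sets, numbered here by their IDs on the array, and in the irradiated KO they moved in both directions. Probe set 6 had log2 levels of 7.48, 6.88 and 7.57 in KO irradiated thymocytes, against 9.64, 9.89 and 9.70 in WT irradiated thymocytes, a difference of -2.44 ± 0.18 (limma adjusted p = 4.2e-05). Probe set 7 gave 7.25, 7.37 and 6.91 in KO irradiated thymocytes, against 9.33, 9.65 and 9.36 in WT irradiated thymocytes, a difference of -2.27 ± 0.15 (limma adjusted p = 2.13e-05). Probe set 2 gave 12.72, 12.72 and 12.74 in KO irradiated thymocytes, against 11.56, 11.61 and 11.34 in WT irradiated thymocytes, a difference of 1.23 ± 0.12 (limma adjusted p = 0.000345). On each of the 8 probe sets the 3 KO arrays lay apart from the 3 WT arrays, above them on probe sets 1 to 3 and below them on probe sets 4 to 8. The other differences were 1.37 and 0.98 for probe sets 1 and 3, and -1.35, -1.89 and -1.37 for probe sets 4, 5 and 8. Among all 167016 single probe sets, 2.89% were called higher and 1.54% lower. The gene as a whole had a difference of -1.31 ± 0.12 (limma adjusted p = 6.59e-07), or -0.72 with the mean of its probe sets in place of the median.

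The untreated KO arrays gave another pattern on the same 8 probe sets. Probe set 2 had levels of 5.62 and 5.67 in KO untreated thymocytes, against 12.07 and 11.83 in WT untreated thymocytes, so it stood above WT in the irradiated KO and far below WT in the untreated KO, and the difference between the 2 effects was 7.53 (limma adjusted p = 5.31e-07). Probe set 7, low in the irradiated KO, had 11.13 and 11.05 in KO untreated thymocytes, against 9.95 and 9.84 in WT untreated thymocytes, and its effects differed by -3.47 (limma adjusted p = 0.000514). Probe set 4 was the one that was lower in both KO groups. Which exons each probe set reads, which the allele removes and whether both KO groups carry the same allele, the sources used here do not say, and signal on single probe sets does not show whether GFI1 protein was made. The label KO is kept as given.

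**Figure D1:**
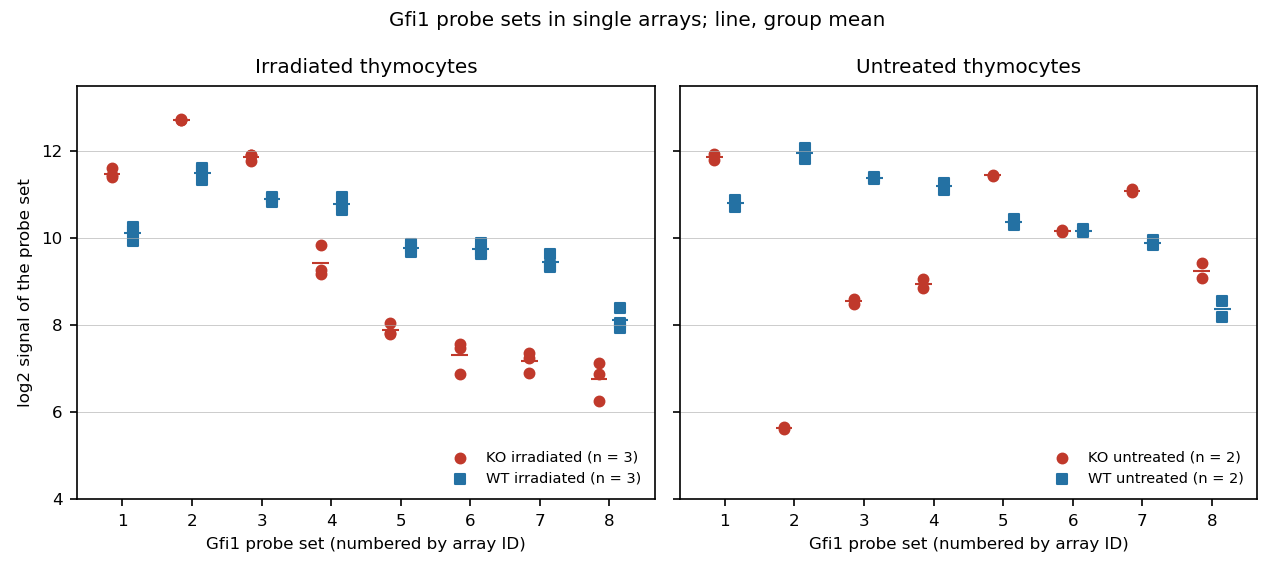
Log2 signal (y axis) of the 8 Gfi1 probe sets (x axis) on each irradiated array (left panel) and untreated array (right panel), with KO as circles, WT as squares and group means as lines. In irradiated thymocytes KO lies above WT on probe sets 1 to 3 and below WT on probe sets 4 to 8, and in untreated thymocytes KO lies far below WT on probe set 2.

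Of 12747 genes tested, 1035 (8.12%) were higher and 868 (6.81%) lower in KO irradiated than in WT irradiated thymocytes, 14.9% in all. The rises were larger than the falls: 186 genes rose by over 1 on the log2 scale and 34 fell by over 1, and 34 rose by over 2 and 3 fell by over 2. The median difference was 0.54 among the genes called higher, -0.41 among those called lower and -0.03 over all genes tested. The filter kept a gene that exceeded the 40th percentile of the array on 2 or more of the 10 thymocyte arrays, so a gene that would not have passed without the arrays of 1 group, said here to pass only through them, was chosen for being high there: 33 of the genes called higher passed only through KO irradiated arrays, and 25 of those called lower only through WT irradiated arrays. Among the genes named, Il18r1, 5830411N06Rik, Msh4, Zp1, Nucb2, Amica1, Zbtb10, Selp, Esrp1, Eya1, Igk and Alas2 passed through KO arrays of both treatments and no WT array, and Slc15a1, Cpa3, Ngp, Lcn2 and Padi4 through WT arrays of both treatments and no KO array. The 2 groups of 3 arrays did not overlap for 3211 genes (25.2%), among them 1009 of the genes called higher and 831 of those called lower. Leaving out 1 array at a time, the count of higher genes ran from 863 to 1074 and that of lower genes from 562, without KO irradiated 3, to 1109. In thymocytes without irradiation, 866 genes (6.79%) were higher and 700 (5.49%) lower in KO. The genes called higher in both comparisons numbered 593, which is 57.3% of those higher in irradiated and 68.5% of those higher in untreated KO thymocytes. The genes called lower in both numbered 271, which is 31.2% of those lower in irradiated and 38.7% of those lower in untreated KO thymocytes.

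**Figure D2:**
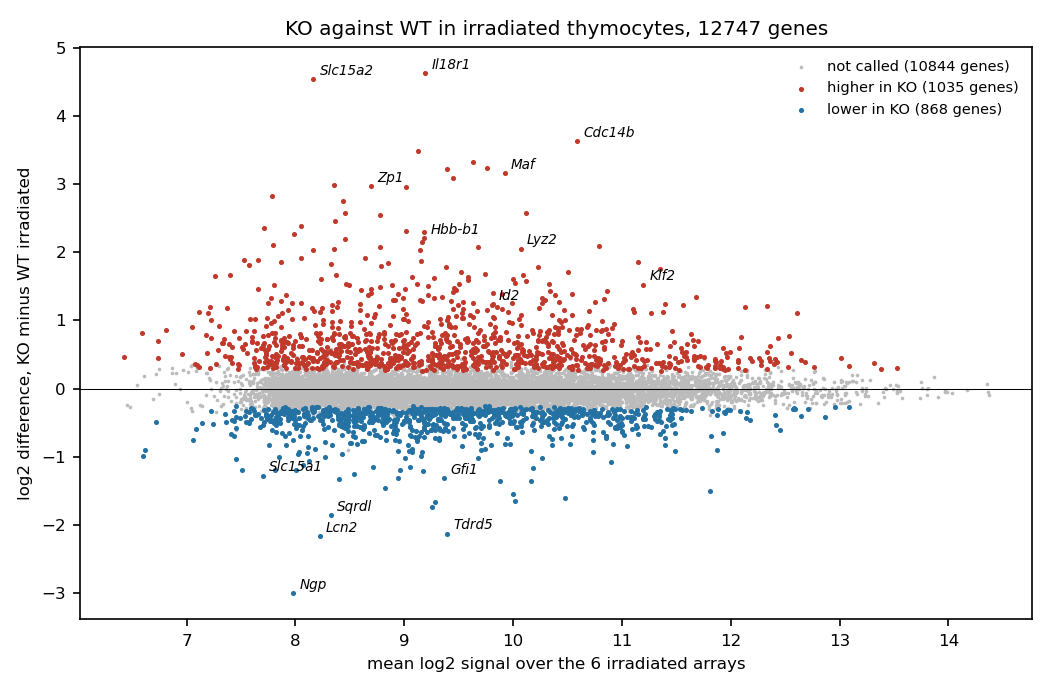
Log2 difference between KO and WT irradiated thymocytes (y axis) against the mean log2 signal over the 6 arrays (x axis) for the 12747 genes tested, with genes called higher in KO in red, lower in blue and the others in grey. Il18r1 and Slc15a2 stand apart at the top and Ngp at the bottom.

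Il18r1, the ligand-binding chain of the interleukin 18 receptor, had the largest rise. Its log2 levels were 11.43, 11.67 and 11.44 in KO irradiated thymocytes, against 6.77, 6.92 and 6.94 in WT irradiated thymocytes, a difference of 4.64 ± 0.09 (limma adjusted p = 2.98e-15). All 3 KO arrays lay far above all 3 WT arrays, and each of its 16 probe sets was called higher. Slc15a2 encodes PEPT2, a proton-coupled carrier of di- and tripeptides, and came next. Its levels were 10.36, 10.71 and 10.24 in KO irradiated thymocytes, against 6.05, 5.92 and 5.71 in WT irradiated thymocytes, a difference of 4.54 ± 0.12 (limma adjusted p = 9.35e-14). The groups lay far apart, and the WT irradiated arrays were the exception among the thymocytes: its levels were 10.03 and 10.13 in KO untreated thymocytes, against 10.92 and 10.89 in WT untreated thymocytes. Irradiated minus untreated, the log2 difference was 0.35 ± 0.13 (limma adjusted p = 0.044) in KO and -5.01 ± 0.13 (limma adjusted p = 2.31e-13) in WT.

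The other 13 of the 15 largest rises had differences from 2.57 to 3.64, and for none of the 15 did the groups overlap, as the rule that named them requires. Cdc14b, a phosphatase that opposes cyclin-dependent kinases, had levels of 12.36, 12.60 and 12.26 in KO irradiated thymocytes, against 8.56, 8.84 and 8.91 in WT irradiated thymocytes, a difference of 3.64 ± 0.11 (limma adjusted p = 4.78e-13). Cd163l1, a scavenger receptor known on gamma delta T cells, had levels of 11.13, 11.53 and 11.22 in KO irradiated thymocytes, against 8.13, 7.59 and 8.18 in WT irradiated thymocytes, a difference of 3.33 ± 0.15 (limma adjusted p = 5.81e-11). Within each group the 3 arrays of both genes stayed within about 1 unit of each other. Maf, a transcription factor of cytokine-producing T cells, had levels of 11.45, 11.44 and 11.62 in KO irradiated thymocytes, against 8.19, 8.37 and 8.46 in WT irradiated thymocytes, a difference of 3.16 ± 0.10 (limma adjusted p = 5.03e-13). Chd7, an ATP-driven chromatin remodeller, had levels of 10.95, 11.13 and 10.93 in KO irradiated thymocytes, against 7.64, 7.85 and 7.84 in WT irradiated thymocytes, a difference of 3.23 ± 0.10 (limma adjusted p = 3.64e-13). For both, the lowest KO array was above the highest WT array by over 2 units. Epha2, a receptor kinase for ephrins, had a difference of 3.09 ± 0.10, and Amica1, a junctional adhesion molecule of leukocytes, one of 2.99 ± 0.13. Zp1, a protein of the egg coat, had a difference of 2.97 ± 0.12, and Msh4, which acts in meiotic recombination, one of 2.82 ± 0.12. Esrp1, an epithelial splicing regulator, had a difference of 2.96 ± 0.09, and Eya1, a transcriptional coactivator of organ development, one of 2.76 ± 0.09. Sertad4 (3.24 ± 0.09), Nucb2, a calcium-binding protein (2.59 ± 0.09), and the RING finger gene Rnf39 (2.57 ± 0.09) complete the 15, and all 15 stayed called whichever 1 of the 10 thymocyte arrays was left out.

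The start regions of these genes were searched for AAATCA, the core of the site GFI1 binds, on both strands, in the 250 bases before and 50 after each annotated start (RefSeq, GRCm38.p6). Of the 15 genes, 9 had a start region in the table, and Slc15a2 and Sertad4 held the letters. They are shown because they are the genes of that group where the motif was found, with the motif in capitals, 5′ to 3′.
Slc15a2, chr16:36784913-36785212, minus strand: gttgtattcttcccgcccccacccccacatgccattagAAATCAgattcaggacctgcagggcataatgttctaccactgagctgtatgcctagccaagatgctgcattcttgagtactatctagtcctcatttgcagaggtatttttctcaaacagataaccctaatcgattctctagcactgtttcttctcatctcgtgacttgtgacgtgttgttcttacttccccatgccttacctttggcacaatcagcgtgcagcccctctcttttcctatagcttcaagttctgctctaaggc
Sertad4, first of 2 starts, chr1:192855703-192856002, minus strand: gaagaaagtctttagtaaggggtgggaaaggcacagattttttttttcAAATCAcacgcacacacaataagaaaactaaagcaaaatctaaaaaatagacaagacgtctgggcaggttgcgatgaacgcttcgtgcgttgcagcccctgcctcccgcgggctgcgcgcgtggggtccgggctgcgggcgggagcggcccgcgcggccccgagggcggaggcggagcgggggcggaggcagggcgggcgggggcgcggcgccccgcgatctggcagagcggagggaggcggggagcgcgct
The motif stood in 14% of all 32851 start regions. Counted by gene, it stood in 13.8% of the 718 genes called higher that had a start region, in 8.77% of the 616 called lower and in 10.1% of the 8824 tested. None of the 10 matched genes among the 15 largest falls held it. A match of 6 letters is a description of the sequence and not a binding site.

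**Figure D3:**
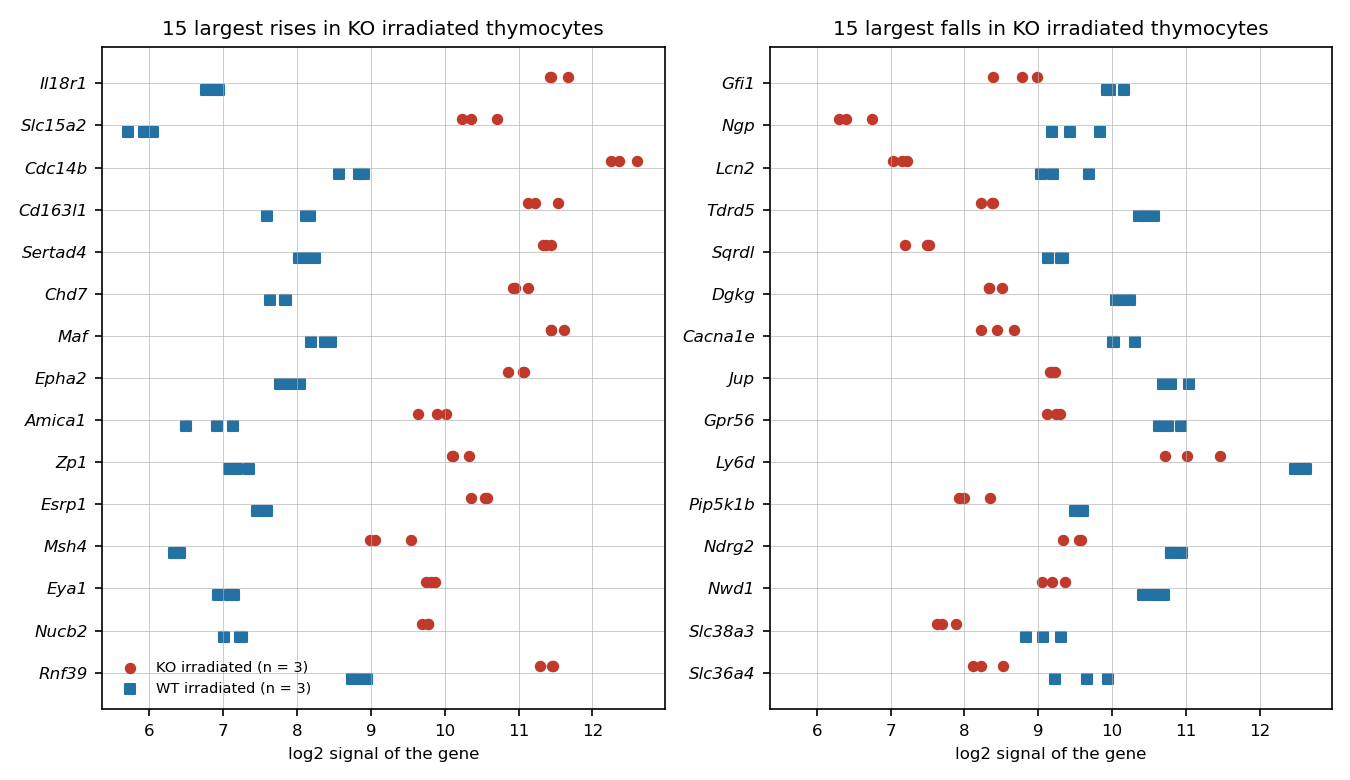
Log2 signal (x axis) of the 15 genes with the largest rises (left panel) and the 15 with the largest falls (right panel) on each irradiated array, with KO as circles above WT as squares in each row. The genes were chosen for groups that do not overlap, and for most of them the arrays of a group lie close together compared with the gap between groups. For Slc36a4 they do not, with WT arrays from 9.22 to 9.94 and the highest KO array at 8.53.

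The falls were smaller. Ngp, a protein of neutrophil granules, had levels of 6.75, 6.39 and 6.29 in KO irradiated thymocytes, against 9.43, 9.83 and 9.19 in WT irradiated thymocytes, a difference of -3.003 ± 0.15 (limma adjusted p = 1.89e-10). Lcn2, which neutrophils secrete to sequester bacterial iron carriers, had levels of 7.15, 7.04 and 7.22 in KO irradiated thymocytes, against 9.04, 9.69 and 9.19 in WT irradiated thymocytes, a difference of -2.17 ± 0.14 (limma adjusted p = 8.16e-09). All 3 KO arrays were below all 3 WT arrays for both. Tdrd5, a Tudor domain protein of germ cells that is also read in thymocytes here, had levels of 8.38, 8.38 and 8.23 in KO irradiated thymocytes, against 10.37, 10.45 and 10.56 in WT irradiated thymocytes, a difference of -2.13 ± 0.09 (limma adjusted p = 2.48e-11). Dgkg, a diacylglycerol kinase, had a difference of -1.74 ± 0.09, and Pip5k1b, which makes the phosphoinositide PIP2, one of -1.46 ± 0.12. Cacna1e, a voltage-gated calcium channel subunit, had a difference of -1.67 ± 0.11. The surface proteins Gpr56, an adhesion receptor, and Ly6d had differences of -1.55 ± 0.10 and -1.50 ± 0.14. Ly6d was spread most widely among the KO arrays, with levels of 11.46, 10.71 and 11.01 in KO irradiated thymocytes, against 12.63, 12.58 and 12.47 in WT irradiated thymocytes, and still did not overlap. Jup, the junction protein plakoglobin, had a difference of -1.65 ± 0.10, and the amino acid carriers Slc38a3 and Slc36a4 had -1.33 and -1.32 ± 0.15. Slc38a3 passed the filter only through WT irradiated arrays, so its value is a description. Sqrdl, which oxidizes sulfide in mitochondria, had a difference of -1.86 ± 0.13, and Ndrg2 and Nwd1 had -1.36 ± 0.09 and -1.36 ± 0.10. Gfi1 itself was the other member of the 15.

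Cytokine receptors and their signal chains were called higher more often than lower: of 47 tested, 20 rose and 4 fell, with a median difference of 0.20. Over all genes tested 8.12% rose and 6.81% fell, which stands beside this and each later list count. The lists were chosen with earlier results of these data known, so their counts are a description. With KO irradiated 3 left out, 14 cytokine receptor genes were called higher. Members of a list whose count is 5 or fewer are named here and for the later lists, some of them after their values were seen. The falls were Il17re, Il2ra (-0.37), Il10ra (-0.36) and the signal inhibitor Pias3 (-0.30), and 2 fell without WT irradiated 2, WT irradiated 3, KO irradiated 1 or KO irradiated 3. Il18r1 led the rises, and Il18rap, the second chain that the interleukin 18 receptor needs to signal, had levels of 7.79, 7.81 and 7.57 in KO irradiated thymocytes, against 7.06, 7.14 and 7.13 in WT irradiated thymocytes, a difference of 0.62. The KO arrays were all above the WT arrays. Il18rap passed the filter only through the KO untreated arrays, as did Ccr6, Msr1, Cd86, Ppbp and Pf4 among the genes named further on, so their differences are a description. Leaving out members that passed only through the arrays of 1 group, a choice made after seeing the data, left 43 cytokine receptor genes with 18 higher and 4 lower, and 11 interleukin 18 and 1 pathway genes with 2 higher and 0 lower. Of 13 genes of the interleukin 18 and interleukin 1 pathway, 4 rose and 0 fell (1 without WT irradiated 1 or KO irradiated 2), the other rises being the cytokine Il1b (0.50), which passed the filter only through KO irradiated arrays, and the receptor Il1rl2 (0.46). The adaptor Myd88, which both receptors share, had a difference of 0.22 ± 0.10 (limma adjusted p = 0.184). Il2rb, a chain shared by the interleukin 2 and 15 receptors, had levels of 10.19, 10.20 and 10.40 in KO irradiated thymocytes, against 9.06, 9.52 and 9.35 in WT irradiated thymocytes, a difference of 0.95 ± 0.12 (limma adjusted p = 1.63e-05). Il6ra, the interleukin 6 receptor, had a difference of 1.06 ± 0.11 (limma adjusted p = 1.78e-06), and Il7r, the survival receptor of naive and memory T cells, had one of 0.60 ± 0.10 (limma adjusted p = 0.000332). The transducer Stat4, which interleukin 12 activates, rose by 0.69 ± 0.09. Il17re, a receptor for interleukin 17C, went the other way, with levels of 8.07, 8.08 and 8.16 in KO irradiated thymocytes, against 8.80, 9.04 and 8.86 in WT irradiated thymocytes and a difference of -0.80 ± 0.09 (limma adjusted p = 8.75e-06). For each of the genes whose 6 levels are given the KO and WT arrays did not overlap.

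Markers of gamma delta T cells and of natural killer (NK) or cytotoxic cells were counted next, beside 8.12% higher and 6.81% lower over all genes tested. Of 16 gamma delta markers tested, 8 rose and 1 fell (median 0.31), Cd163l1 and Maf had the largest values and Il17re was the fall. The related scavenger receptor gene listed as 5830411N06Rik had levels of 10.08, 10.07 and 10.37 in KO irradiated thymocytes, against 7.94, 7.75 and 7.86 in WT irradiated thymocytes, a difference of 2.32 ± 0.10 (limma adjusted p = 2.48e-11). The chemokine receptor Ccr6 had a difference of 0.61, given as a description. Sox13, a transcription factor of gamma delta T cells, had a difference of -0.04 ± 0.10 (limma adjusted p = 0.876). Without WT irradiated 1, or without KO irradiated 1, 5 of the gamma delta markers were called higher. Of 16 NK and cytotoxic markers, 10 rose and 1 fell (median 0.46), the fall being Zeb2, a repressor that killer cells use (-0.34 ± 0.10), which was not called without WT irradiated 2, WT irradiated 3, KO irradiated 1 or KO irradiated 3. Without WT irradiated 1, 7 of the list were called higher and 2 lower. Klrd1, an NK receptor chain, had levels of 8.10, 8.08 and 8.41 in KO irradiated thymocytes, against 7.33, 7.37 and 7.10 in WT irradiated thymocytes, a difference of 0.92 ± 0.11 (limma adjusted p = 1.7e-05). The protease gene Ctsw rose by 0.86 ± 0.12, and the granule proteases Gzmb and Gzma rose by 0.66 ± 0.13 and 0.45 ± 0.10. The KO arrays lay above the WT arrays for each of the genes whose 6 levels are given. The mean level over the gamma delta list was 9.49 to 9.51 on KO irradiated and 8.77 to 8.81 on WT irradiated arrays, and that over the NK list 8.42 to 8.62 on KO irradiated and 8.06 to 8.16 on WT irradiated arrays. Without the members that passed the filter only through KO untreated arrays, 7 of 14 gamma delta markers were higher and 1 lower, and 9 of 13 NK and cytotoxic markers were higher and 1 lower. In bulk thymocytes a larger share of such cells and more RNA per cell cannot be told apart.

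Of 20 macrophage and dendritic cell markers tested, 12 rose and 1 fell (median 0.32), beside 8.12% and 6.81% of all genes tested. With KO irradiated 3 left out, 8 were called higher. Lyz2, the lysozyme of macrophages and neutrophils, had levels of 11.15, 10.84 and 11.30 in KO irradiated thymocytes, against 8.97, 9.29 and 8.86 in WT irradiated thymocytes, a difference of 2.06 ± 0.12 (limma adjusted p = 2.4e-09). The near-identical Lyz1 had 1.79, and the arrays may not separate the pair. Ctss, the protease that trims the invariant chain, had levels of 9.36, 9.41 and 9.51 in KO irradiated thymocytes, against 7.82, 8.08 and 8.0 in WT irradiated thymocytes, a difference of 1.46 ± 0.09 (limma adjusted p = 5.64e-09). The KO arrays were above the WT arrays for both. Msr1, a macrophage scavenger receptor, had a difference of 1.11, given as a description. C1qb, a complement chain made by macrophages, had a difference of 1.17 ± 0.14 (limma adjusted p = 1.48e-05), and Cybb, the oxidase chain of phagocytes, 0.99 ± 0.10 (limma adjusted p = 9.72e-07). The fall was Siglech, a marker of plasmacytoid dendritic cells, with a difference of -0.40 ± 0.10 (limma adjusted p = 0.0114). Of the 15 members that did not pass the filter through the KO untreated arrays alone, 10 rose and 1 fell. The mean level over the list was 8.46 to 8.66 on KO irradiated arrays, against 7.98 to 8.04 on WT irradiated arrays.

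Of 26 genes of the major histocompatibility complex (MHC) and its peptide loading, 14 rose and 1 fell (median 0.36). The shares over all genes tested were 8.12% and 6.81%. The fall, the peptide pump gene Tap2 (-0.29 ± 0.10), was called in 2 of the 10 fits that left out 1 array, those without WT irradiated 3 or KO irradiated 2. The class II chain H2-Aa had levels of 11.11, 10.85 and 11.18 in KO irradiated thymocytes, against 9.87, 9.99 and 9.81 in WT irradiated thymocytes, a difference of 1.16 ± 0.10 (limma adjusted p = 2.06e-07), and its partner H2-Eb1 and the invariant chain Cd74 rose by 0.96 ± 0.11 and 0.88 ± 0.11. Class I gene H2-K1 had levels of 11.34, 11.16 and 11.38 in KO irradiated thymocytes, against 10.38, 10.56 and 10.30 in WT irradiated thymocytes, a difference of 0.88 ± 0.10 (limma adjusted p = 3.71e-06). No KO array overlapped a WT array for either, and H2 genes are close relatives that probe sets can share. The costimulatory ligand Cd86 had a difference of 0.84, given as a description, and its relative Cd80 rose by 0.73 ± 0.09. Without the members that passed the filter only through the arrays of 1 group, 13 of 24 genes of the MHC list rose and 1 fell. Class II, Ctss and Cd74 are also expressed by B cells, dendritic cells and thymic epithelium. Of 16 B cell markers 9 rose and 2 fell (median 0.37; 1 fell without WT irradiated 1 or KO irradiated 2), with Cd79a, a signalling chain of the B cell receptor, at 10.22, 9.83 and 10.21 in KO irradiated thymocytes, against 8.96, 9.19 and 8.77 in WT irradiated thymocytes, a difference of 1.12 ± 0.12 (limma adjusted p = 3.03e-06). The factor Spib, which B cells and plasmacytoid dendritic cells use, had a difference of -0.93 ± 0.12, and Cd79b, the partner of Cd79a, one of -0.45 ± 0.13. Leaving out the B cell marker that passed the filter only through KO untreated arrays, 8 of 15 rose and 2 fell. With KO irradiated 1 left out, 7 B cell markers were called higher. The mean level over the B cell list was 8.40 to 8.51 on KO irradiated arrays, against 8.15 to 8.23 on WT irradiated arrays. The part of these marker changes in the MHC result was not tested.

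Of 38 interferon response genes tested, 21 rose and 2 fell (median 0.33), beside 8.12% and 6.81% of all genes tested. With WT irradiated 1 left out, 15 were called higher. Ifit3, which interferon induces in most cells, had levels of 8.61, 8.42 and 8.51 in KO irradiated thymocytes, against 7.13, 7.37 and 7.17 in WT irradiated thymocytes, a difference of 1.28 ± 0.09 (limma adjusted p = 2.91e-08). Rtp4, another interferon-induced gene, had levels of 9.65, 9.44 and 9.64 in KO irradiated thymocytes, against 8.22, 8.55 and 8.45 in WT irradiated thymocytes, a difference of 1.17 ± 0.11 (limma adjusted p = 3.98e-07). Each KO array was above each WT array. The guanylate-binding protein Gbp2 rose by 1.08 ± 0.11, the antiviral membrane protein Ifitm3 by 1.10 ± 0.11 and Ifi203 by 0.86 ± 0.10. Oasl2, which interferon also induces, had levels of 7.09, 7.69 and 7.45 in KO irradiated thymocytes, against 8.56, 8.62 and 8.65 in WT irradiated thymocytes, a difference of -1.20 ± 0.12 (limma adjusted p = 1.6e-06), and Igtp had -0.41, so the list did not move as a block. Of 21 chemokines, cytokines and related genes, 10 rose and 0 fell (median 0.31), with 1 fall without WT irradiated 1 and 8 rises without KO irradiated 1. Ccl3, a chemokine of activated leukocytes, had levels of 10.64, 10.12 and 10.37 in KO irradiated thymocytes, against 8.87, 8.55 and 8.57 in WT irradiated thymocytes, a difference of 1.71 ± 0.12 (limma adjusted p = 2.21e-08). Cxcl2, which attracts neutrophils, had levels of 8.43, 7.84 and 8.43 in KO irradiated thymocytes, against 6.60, 6.57 and 6.54 in WT irradiated thymocytes, a difference of 1.66. Both groups kept apart on both genes, and neither gene was called in untreated KO thymocytes (0.34 and -0.21). The NF-kappaB regulator Nfkbiz rose by 0.71 ± 0.09, and the prostaglandin synthase Ptgs2 had a difference of 1.003. Cxcl2 and Ptgs2 passed the filter only through KO irradiated arrays, so their differences are a description, and without such members 8 of 19 genes of the list rose and 0 fell. Macrophage markers were called higher on the same arrays, 12 of 20, and their part in these changes was not tested. Of 30 immediate early genes 7 rose and 0 fell (median 0.17), led by Klf2 and by Fosl2, an AP-1 subunit (0.93 ± 0.11). Without the members that passed only through KO irradiated arrays, 6 of 28 rose and 0 fell. Without KO irradiated 1 or without KO irradiated 3, 4 were called higher, and without WT irradiated 1 or KO irradiated 2, 1 was called lower.

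Of 16 neutrophil granule genes tested of 23 listed, 10 were called lower and 0 higher, but 10 of the 16 passed the filter only through the 2 WT untreated arrays, where they were high. Of the other 6 members 5 fell and 0 rose: Ngp and Lcn2, described above, Mpo, Padi4, an enzyme that modifies histones in neutrophils (-0.53), and Ela2, neutrophil elastase (-0.51). Ngp, Lcn2 and Padi4 passed through WT arrays of both treatments alone, as given above. Mpo, the myeloperoxidase of primary granules, had levels of 7.45, 7.82 and 7.92 in KO irradiated thymocytes, against 8.75, 8.61 and 8.51 in WT irradiated thymocytes, a difference of -0.89 ± 0.12 (limma adjusted p = 4.54e-05). Among the 10, S100a8, a subunit of the secreted protein calprotectin, had levels of 6.09, 6.02 and 6.21 in KO irradiated thymocytes, against 7.22, 7.10 and 6.97 in WT irradiated thymocytes, and Ltf, the iron-binding lactoferrin, and Retnlg had differences of -0.70 and -0.90, given as a description. The 3 KO arrays were below the 3 WT arrays for S100a8 and for Mpo. The mean level over the list was 7.12 to 7.16 on KO irradiated and 7.79 to 7.89 on WT irradiated arrays, against 7.004 and 7.07 on the KO untreated and 8.90 and 9.02 on the WT untreated arrays. The filter chose 10 of the 16 members for being high on the WT untreated arrays. The list means are therefore a description, and their height on the WT untreated arrays is not a result. Without WT untreated 1, or without WT untreated 2, only 8 members passed the filter on dim genes, and 5 of them were called lower.

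Other cell types that thymus preparations can hold gave mixed values, given beside 8.12% higher and 6.81% lower over all genes tested. Of 10 erythroid and platelet genes, 4 rose and 1 fell, and 2 of 8 rose and 1 fell without the members that passed the filter only through KO untreated arrays. Hbb-b1, an adult haemoglobin chain, had levels of 10.45, 9.68 and 10.74 in KO irradiated thymocytes, against 8.43, 8.12 and 7.70 in WT irradiated thymocytes, a difference of 2.21 ± 0.21 (limma adjusted p = 9.37e-07), with all KO arrays above all WT arrays. The platelet genes Ppbp and Pf4 and the haem synthesis gene Alas2 had 0.78, 0.75 and 0.63, and the fall was Car2, a carbonic anhydrase (-0.51). The list's mean level was 8.27 to 8.45 on KO irradiated arrays, against 7.87 to 8.03 on WT irradiated arrays. Of 16 thymic stroma genes 2 rose and 0 fell (1 without KO irradiated 2). Those that rose were Cldn4, a tight junction protein (1.15 ± 0.12), and Epcam, an epithelial adhesion protein (0.68 ± 0.12), while the stroma list as a whole had mean levels of 8.75 to 8.79 on KO and 8.57 to 8.69 on WT irradiated arrays. Their part in the other results was not tested.

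**Figure D4:**
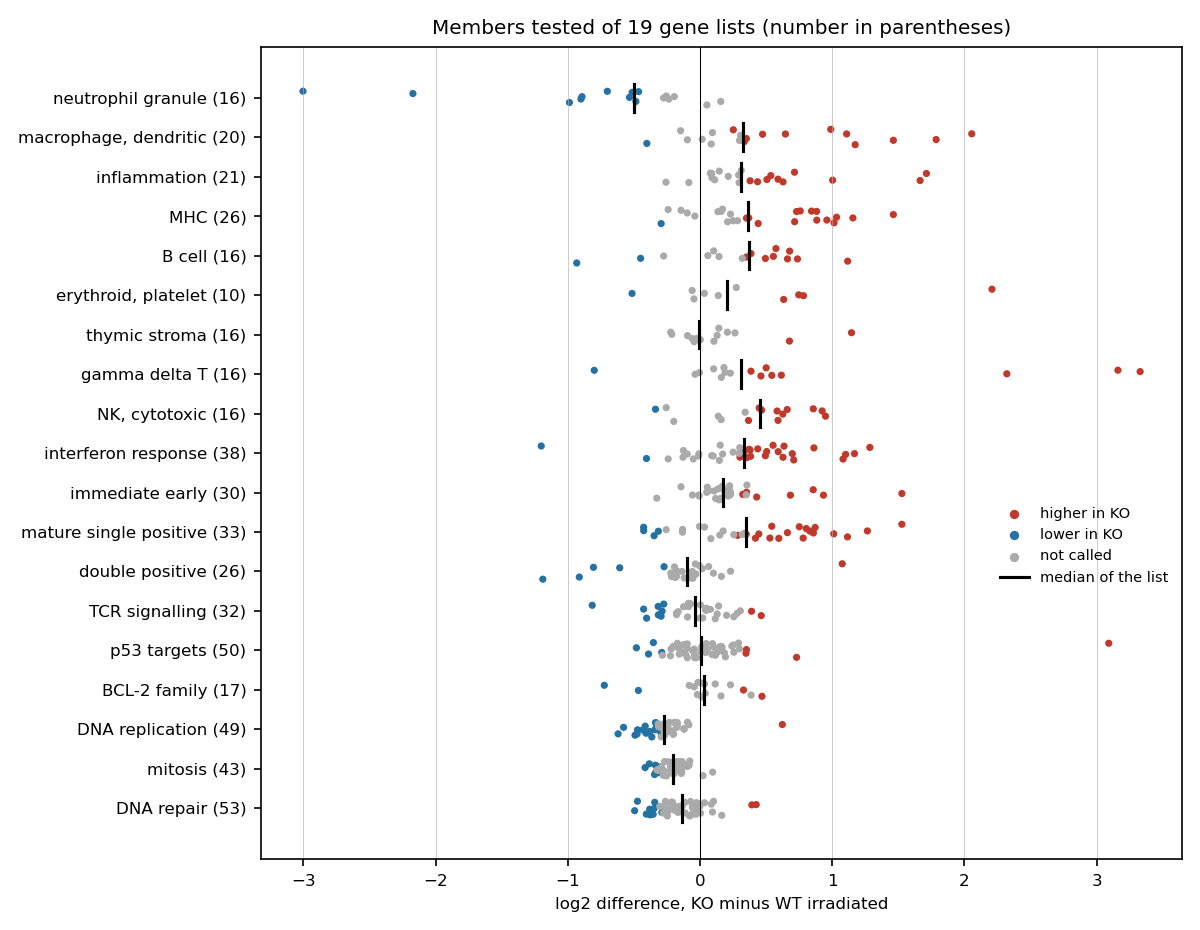
Log2 difference between KO and WT irradiated thymocytes (x axis) of each member tested in 19 gene lists (rows, number of members in parentheses), with members called higher in red, lower in blue, others in grey and the list median as a black bar. The median of the NK and cytotoxic list is 0.46 and that of the DNA replication list -0.27, with single members on either side of 0, and 10 of the 16 neutrophil granule genes drawn passed the filter only through WT untreated arrays.

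Genes of mature, single positive thymocytes and genes of the double positive stage were counted side by side. Over all genes tested 8.12% rose and 6.81% fell. Of 33 genes of the mature list 18 rose and 4 fell (median 0.35), and 1 fell without WT irradiated 2 and 2 without WT irradiated 1, KO irradiated 2 or KO irradiated 3. The falls were Cd6 (-0.43), Sit1 (-0.43), Cd5 (-0.32) and Zbtb7b (-0.35), the factor of the CD4 lineage. Of 26 double positive stage genes 1 rose, 2 without WT irradiated 1, and 5 fell (median -0.10). Klf2, the factor that lets mature thymocytes leave the thymus, had levels of 11.88, 11.87 and 12.11 in KO irradiated thymocytes, against 10.39, 10.46 and 10.43 in WT irradiated thymocytes, a difference of 1.53 ± 0.10 (limma adjusted p = 4.01e-09). Its target S1pr1, the receptor for the exit signal sphingosine 1-phosphate, had levels of 10.94, 11.19 and 11.04 in KO irradiated thymocytes, against 9.74, 9.79 and 9.84 in WT irradiated thymocytes, a difference of 1.27 ± 0.10 (limma adjusted p = 9.87e-08). All KO arrays exceeded all WT arrays on both. Cd69, which retains cells by pulling S1PR1 from the surface, had levels of 10.28, 10.04 and 10.07 in KO irradiated thymocytes, against 9.11, 9.46 and 9.25 in WT irradiated thymocytes, a difference of 0.86 ± 0.10 (limma adjusted p = 1.1e-05), again without overlap. The integrin chains Itgb7 and Itgae, which pair to hold T cells in epithelia, rose by 0.83 ± 0.10 and 0.80 ± 0.10. Among 16 receptors for chemokines and other migration cues 8 rose and 2 fell, led by Gpr183, a receptor for oxysterols (1.47 ± 0.08 (limma adjusted p = 1.63e-09)). The falls were Ptger4, a prostaglandin receptor (-0.67), and Ccr4 (-0.63). Without KO untreated 1 or without KO untreated 2, 5 of these 16 receptors were called higher. Leaving out the receptors that passed the filter only through the arrays of 1 group, 6 of 12 rose and 2 fell.

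At the double positive stage, Dntt, the polymerase that adds bases at receptor gene joints, had levels of 11.05, 10.88 and 11.18 in KO irradiated thymocytes, against 12.01, 12.09 and 11.75 in WT irradiated thymocytes, a difference of -0.91 ± 0.11 (limma adjusted p = 7.52e-06). Cpa3 and Mns1 had differences of -1.19 ± 0.14 and -0.81 ± 0.10, the transcription factor gene Ets2 had -0.61 and Aqp11 -0.27, and the sialyltransferase St6gal1 rose by 1.08 ± 0.10. The recombinase genes Rag1 and Rag2 had differences of 0.07 ± 0.10 and 0.02 ± 0.09, Cd4 and Cd8a had -0.19 ± 0.09 and -0.01 ± 0.08, and Cd3e had -0.09 ± 0.08, none of which passed the test. Of 21 progenitor and double negative genes 3 rose and 2 fell, beside 8.12% and 6.81% of all genes tested. Il7r, Dtx1 (0.34) and Flt3 (0.31) rose, and Il2ra fell with Ptcra, the surrogate receptor chain of that stage, at -0.48 ± 0.11 (limma adjusted p = 0.0062). Of 32 T cell receptor signalling genes 2 rose and 8 fell. The rises were the kinase Prkcq (0.46) and the costimulatory receptor Cd28 (0.39). Ubash3a, an inhibitor of that signal, had levels of 10.49, 10.49 and 10.56 in KO irradiated thymocytes, against 11.17, 11.50 and 11.31 in WT irradiated thymocytes, a difference of -0.82 ± 0.10 (limma adjusted p = 1.31e-05), with all KO arrays below all WT arrays. The count of 8 falls was 3 to 5 when any 1 of the thymocyte arrays other than WT irradiated 1 was left out.

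Transcription factors of T cells moved in both directions: of 41 tested, 13 rose and 8 fell, beside 8.12% and 6.81% of all genes tested. Leaving out the members that passed the filter only through the arrays of 1 group, 11 of 39 rose and 8 fell. The count of rises was 9 to 12 in the fits that left out 1 array. The count of falls was 3 to 5 when any 1 array other than WT irradiated 1 or KO irradiated 2 was left out. The inhibitors of E proteins, the factors that hold cells at the double positive stage, were among the rises. Id2 had levels of 10.54, 10.25 and 10.47 in KO irradiated thymocytes, against 9.01, 9.45 and 9.11 in WT irradiated thymocytes, a difference of 1.23 ± 0.11 (limma adjusted p = 4.33e-07). Id1 had levels of 8.98, 8.86 and 9.17 in KO irradiated thymocytes, against 8.16, 7.96 and 7.93 in WT irradiated thymocytes, a difference of 0.98 ± 0.10 (limma adjusted p = 3.11e-06). The KO arrays were above the WT arrays on both, and Id3, which rises with receptor signals, had a difference of 0.50 ± 0.13 (limma adjusted p = 0.017), a call that did not hold without WT irradiated 1, WT irradiated 3, KO irradiated 1 or KO irradiated 3. Zbtb10, a zinc finger factor, had levels of 9.04, 9.62 and 9.06 in KO irradiated thymocytes, against 6.67, 7.01 and 6.89 in WT irradiated thymocytes, a difference of 2.38 ± 0.14 (limma adjusted p = 1.89e-09). Foxo1, which drives Klf2 and Il7r, rose by 0.75 ± 0.10, and Foxp3, the factor of regulatory T cells, by 0.79 ± 0.10. Bcl11b, which fixes the T cell fate, fell, with levels of 11.86, 12.01 and 11.97 in KO irradiated thymocytes, against 12.25, 12.43 and 12.54 in WT irradiated thymocytes and a difference of -0.46 ± 0.09 (limma adjusted p = 0.00212).

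The listed p53 targets and other genes of the p53 pathway were called at about the rate of all genes. This list leaves out the p53-induced death genes of the BCL-2 family, Pmaip1 and Bbc3 among them, which are given with that family below. Of 50 tested, 4 rose and 4 fell, which is close to the background of 8.12% and 6.81%, and their median was 0.01. The count of falls was 2 without WT irradiated 3 or KO irradiated 3. Epha2, already described, had the largest value, and the other rises were Cd80, Zmat3 (0.35) and the gene listed as 9630033F20Rik (0.35). The falls were Cdkn1a, Abhd4 (-0.39), Ptpn14 (-0.35) and Lrdd (-0.29). Cdkn1a, the cell cycle inhibitor p21, had levels of 10.61, 10.23 and 10.59 in KO irradiated thymocytes, against 10.84, 11.01 and 11.01 in WT irradiated thymocytes, a difference of -0.48 ± 0.11 (limma adjusted p = 0.00712), with the KO arrays below the WT arrays. Mdm2, the p53 antagonist that p53 itself induces, had levels of 11.54, 11.70 and 11.55 in KO irradiated thymocytes, against 11.44, 11.68 and 11.62 in WT irradiated thymocytes, a difference of 0.01 ± 0.09 (limma adjusted p = 0.957). Ccng1 and Fas had differences of 0.13 ± 0.09 and -0.17 ± 0.09, neither of which passed. For Mdm2 the groups overlapped.

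Of 17 BCL-2 family genes, 2 rose and 2 fell, counts near the 8.12% and 6.81% of all genes. Bmf, a BH3-only protein that promotes death, had levels of 9.48, 9.37 and 9.22 in KO irradiated thymocytes, against 10.04, 10.24 and 9.97 in WT irradiated thymocytes, a difference of -0.72 ± 0.10 (limma adjusted p = 4.51e-05). Bid, which links death receptors to mitochondria, had a difference of -0.47 ± 0.11 (limma adjusted p = 0.00602). Both were lower on every KO array. The p53-induced death genes Pmaip1 (Noxa) and Bbc3 (Puma) had differences of 0.47 ± 0.13 (limma adjusted p = 0.0204) and 0.39 ± 0.14 (limma adjusted p = 0.0807), and Bcl2l11 (Bim) had 0.33 ± 0.10 (limma adjusted p = 0.0357). Pmaip1 and Bcl2l11 were the rises of the list, and neither was called without WT irradiated 3. Pmaip1 lost its call without any 1 irradiated array other than WT irradiated 2 or KO irradiated 3, and Bcl2l11 lost it in 6 of the 10 fits that left out 1 array. Bbc3 was called without KO irradiated 2 (0.52, limma adjusted p = 0.0129). The survival genes Bcl2, Bcl2l1 and Mcl1 had differences of 0.03 ± 0.09, 0.23 ± 0.09 and 0.16 ± 0.10, none of which passed, though Bcl2l1 passed without WT irradiated 1 (0.30, limma adjusted p = 0.0449). Of 27 caspase, death receptor and inhibitor genes 4 rose and 1 fell (2 without KO irradiated 2). Casp4, Casp8 and Tnfrsf1b rose by 0.61, 0.33 and 0.29. Birc3, an inhibitor of apoptosis that NF-kappaB induces, had levels of 10.58, 10.59 and 10.57 in KO irradiated thymocytes, against 9.82, 9.97 and 9.83 in WT irradiated thymocytes, a difference of 0.70 ± 0.09 (limma adjusted p = 1.38e-05). Tnfrsf1a, the main receptor of tumour necrosis factor, had levels of 10.04, 9.99 and 10.21 in KO irradiated thymocytes, against 10.76, 10.96 and 10.69 in WT irradiated thymocytes, a difference of -0.73 ± 0.10 (limma adjusted p = 3.81e-05). KO arrays were above WT arrays for Birc3 and below them for Tnfrsf1a.

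Of 49 genes of DNA replication tested, 18 fell and 1 rose, and the median was -0.27. Over all genes tested 6.81% fell and 8.12% rose. Tyms, which makes thymidylate, had levels of 10.80, 10.52 and 10.75 in KO irradiated thymocytes, against 11.23, 11.45 and 11.24 in WT irradiated thymocytes, a difference of -0.62 ± 0.10 (limma adjusted p = 0.000283). E2f8, a late S phase repressor, had a difference of -0.58 ± 0.09 (limma adjusted p = 0.000285), and Tk1, thymidine kinase, -0.49 ± 0.11 (limma adjusted p = 0.00502). Orc1l, an origin recognition subunit, rose by 0.62 ± 0.12. The KO arrays were below the WT arrays for Tyms. Without WT irradiated 2, which was the highest of the 3 WT arrays in the mean of this list, 6 were called lower. Of 43 mitosis genes 8 fell and 0 rose (median -0.20), and the count was 1 without WT irradiated 2 and 2 without KO irradiated 1. Of 53 DNA repair and checkpoint genes 10 fell and 2 rose (median -0.14). The rises were the DNA damage kinase Atm (0.42) and the nuclease Dclre1c (0.39), and 1 rose without WT irradiated 1, WT irradiated 2 or KO irradiated 2. Wee1, which holds cells before mitosis, had a difference of -0.47 ± 0.10 (limma adjusted p = 0.00375), and Mgmt, which removes alkyl groups from guanine, -0.38 ± 0.09 (limma adjusted p = 0.00701). Without WT irradiated 2, 4 repair genes were called lower, and without KO irradiated 1 or KO irradiated 3, 5 were. The mean level of the replication list was 10.10 to 10.23 on KO irradiated arrays, against 10.39 to 10.58 on WT irradiated arrays.

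Metabolic and transport genes changed one by one, and their counts stand beside 8.12% higher and 6.81% lower over all genes tested. Of 24 solute carriers 4 rose and 5 fell (3 without WT irradiated 2 or KO irradiated 3). Slc15a2, Slc11a2, Slc9a9 (0.43) and Slc30a1 (0.32) rose, and Slc15a1, Slc7a11 (-0.67), Slc16a1 (-0.48), Slc16a10 (-0.34) and Slc6a6 (-0.28) fell. Slc15a1, the intestinal peptide carrier PEPT1 and closest relative of Slc15a2, had levels of 7.05, 7.11 and 7.03 in KO irradiated thymocytes, against 8.10, 8.54 and 8.39 in WT irradiated thymocytes, a difference of -1.28 ± 0.10 (limma adjusted p = 1.28e-07). The pair thus had KO minus WT differences of opposite sign, and for Slc15a2 the WT irradiated arrays were the exception among the thymocytes, as given above. Slc11a2, an iron carrier, had levels of 10.50, 10.69 and 10.55 in KO irradiated thymocytes, against 8.88, 9.002 and 8.83 in WT irradiated thymocytes, a difference of 1.68 ± 0.09 (limma adjusted p = 7.03e-10). The groups did not overlap for Slc15a1 or Slc11a2. Of 21 glycolysis genes 3 rose and 4 fell, with the lactate dehydrogenase chain Ldhb at -1.08 ± 0.11 (limma adjusted p = 1.59e-06) and the pyruvate kinase gene Pkm2 at 0.68 ± 0.11 (limma adjusted p = 0.000183). Pdk1 (0.41) and 9630033F20Rik also rose, and Pfkm (-0.65), Slc16a1 and Hk1 (-0.31) also fell. Of 23 cholesterol genes 1 rose and 5 fell, and the falls numbered 8 without WT irradiated 1, 3 without KO irradiated 1 and 2 without WT irradiated 2, WT irradiated 3 or KO irradiated 3. The rise was Scd1 (0.70; 2 rose without WT irradiated 2), and the falls were the master regulator Srebf2 (-0.38), the synthesis genes Dhcr7 (-0.40), Lss (-0.41) and Nsdhl (-0.30) and the exporter Abca1 (-0.37). Of 35 adhesion genes 9 rose and 6 fell, the selectin gene Selp among the rises (1.18 ± 0.10).

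The remaining lists are given as counts, with 8.12% higher and 6.81% lower over all genes tested. Their members were chosen with earlier results of these data known. Genes of the largest rises and falls are among them, so the counts are a description. Of 14 germ cell genes 2 rose and 3 fell, with Msh4, Zp1, Tdrd5 and Mns1 described already and Spo11 at -0.56. Of 37 chromatin genes 2 rose, 4 without WT irradiated 3, and 3 fell, 1 without WT irradiated 2, WT irradiated 3, KO irradiated 1 or KO irradiated 3. Chd7 rose, Chd9, a relative, had -0.54 ± 0.12, and Smarca2, an ATPase of the SWI/SNF remodeller, 0.47 ± 0.10, and Tet1 and Suz12 had -0.40 and -0.33. Of 32 Notch pathway genes 3 rose and 4 fell, with the ligand Jag1 at 0.65 ± 0.11 (limma adjusted p = 0.000258). Notch2 (0.43) and Dtx1 rose, and Ccnd3 (-0.44), Skp2 (-0.40), Ptcra and Il2ra fell. Without WT irradiated 2, 6 were called higher. Of 33 T cell leukaemia genes 4 rose, 7 without WT irradiated 2, and 4 fell, namely Mycn, Etv6 (0.58), Pim1 (0.63) and Rras2 (0.46) up and Gfi1, Bcl11b, Ccnd3 and Myb (-0.29) down. Mycn, a relative of Myc, had levels of 8.35, 8.48 and 8.47 in KO irradiated thymocytes, against 7.60, 7.90 and 7.54 in WT irradiated thymocytes, a difference of 0.75, without overlap, but passed the filter only through KO irradiated arrays, and Myc had 0.23 ± 0.10 (limma adjusted p = 0.138), called without KO irradiated 2 (0.30, limma adjusted p = 0.0483). Of 36 ribosome biogenesis and MYC network genes 4 rose, Mycn, Mxd4 (0.70), Wdr12 (0.40) and Odc1 (0.39), and 1 fell, Polr1b (-0.34). Of that list 3 genes fell without WT irradiated 1, 1 without KO irradiated 2 and 0 without any other single array. Of 25 heat shock and stress genes 1 rose, Gadd45b (0.73), and 4 fell, Dnajb4 (-0.89), Asns (-0.45), Hsph1 (-0.40) and Psat1 (-0.27). Without KO irradiated 2, 3 rose, and without KO irradiated 3, 2 fell. Of 13 liver and fetal genes 0 rose, 1 without WT irradiated 1 or WT irradiated 2, and 1 fell. The fall in the last list was H19, an imprinted RNA (-1.12 ± 0.13 (limma adjusted p = 5.65e-06)).

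Genes described elsewhere as repressed by GFI1 in blood cells form a list of 46. Of the 36 tested, 14 rose and 4 fell (median 0.21), beside 8.12% and 6.81% of all genes tested. Gfi1 itself, which represses its own gene, was counted among the falls with Cdkn1a, Ela2 (-0.51) and Ccne1 (-0.29). Leaving out the members that passed the filter only through KO untreated arrays, 12 of 34 rose and 4 fell. With WT irradiated 1 left out, 11 of the list were called higher. Id2, Id1 and Il6ra belong to the rises. Nfil3, a factor of innate lymphocytes, had levels of 10.06, 9.90 and 10.08 in KO irradiated thymocytes, against 8.95, 9.09 and 8.78 in WT irradiated thymocytes, a difference of 1.07 ± 0.10 (limma adjusted p = 3.98e-07). Nfkb1, the p50 subunit of NF-kappaB, had levels of 11.16, 11.30 and 11.32 in KO irradiated thymocytes, against 10.08, 10.15 and 10.15 in WT irradiated thymocytes, a difference of 1.13 ± 0.09 (limma adjusted p = 5.32e-08). Both were higher on every KO array, while Cdkn1a, which the list also holds, was lower. Of 17 genes for GFI1, its relative and its partner proteins, 0 rose and 3 fell, Gfi1 among them. The others, Hdac1 (-0.30 ± 0.10) and Pias3 (-0.30 ± 0.09), lost or kept their calls with single arrays, so that 5 genes fell without WT irradiated 1 and 1 fell when any other array except the WT untreated ones was left out. Gfi1b, the relative that GFI1 can repress, had a difference of 0.11 ± 0.09 (limma adjusted p = 0.54). Evi5, a neighbour of Gfi1, did not pass the filter on dim genes. Of the 100 tested genes nearest to Gfi1, 50 on each side, 7 rose and 10 fell, 17% in all against 14.9% over all genes. This share describes the whole span and not the closest neighbours, which are named after their values were seen. Closest to Gfi1, Tgfbr3 (0.84) and Glmn (0.52) were called higher and Tmed5 (-0.66) and Ccdc18 (-0.40) lower. Brdt, Rpap2, Rpl5 and Mtf2 were not called. The cause was not tested, and these neighbours enter none of the later counts of genes named.

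Calls near the threshold among the genes named for these lists rested on single arrays. The calls of Abca1, Il10ra, Lss, Suz12 and Tet1 were lost without WT irradiated 2, WT irradiated 3, KO irradiated 1 or KO irradiated 3, and that of Odc1 without WT irradiated 1, WT irradiated 3, KO irradiated 1 or KO irradiated 3. Aqp11, Lrdd and Psat1 lost theirs when any array other than WT irradiated 1 was left out, and Myb, Polr1b and Slc6a6 when any other than WT irradiated 1 or KO irradiated 2 was. Cd5 kept its call only without WT irradiated 3 or a WT untreated array. Atm, Cd79b and Sit1 depended on WT irradiated 1, WT irradiated 2 and KO irradiated 2, Zbtb7b on WT irradiated 1, WT irradiated 2 and KO irradiated 3, and Zmat3 on KO irradiated 2 and each WT irradiated array. The calls of Hk1, Nsdhl, Ccne1, Tnfrsf1b and Slc30a1 were lost without KO untreated 1 or KO untreated 2 and without several of the irradiated ones. Flt3 depended on WT irradiated 2, KO irradiated 2 and KO irradiated 3, Slc16a10 on WT irradiated 2, WT irradiated 3 and KO irradiated 3, and 9630033F20Rik on WT irradiated 2, KO irradiated 1 and KO irradiated 3. Ptpn14 lost its call without WT irradiated 3 or KO irradiated 3, Dtx1 without WT irradiated 3 or KO irradiated 1, Asns without KO irradiated 3 and Notch2 without WT irradiated 1.

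Whether the KO effect differed between the irradiated and the untreated pair of groups was tested as the difference of the 2 effects in the same fit. The Gfi1 probe sets differ between the 2 KO groups, as given above, and whether both groups carry the same allele is not stated in the sources used here, so irradiation cannot be told apart from any other difference between the groups. The difference was called for 240 genes (1.88%), with the irradiated effect above the untreated one for 140 and below it for 100. These counts were 42 to 59 and 19 to 43 without any 1 of the 4 untreated arrays. Slc15a2 had the largest value, 5.36 ± 0.19 (limma adjusted p = 2.14e-11), since its KO effect was 4.54 ± 0.12 in irradiated and -0.82 ± 0.14 (limma adjusted p = 0.000848) in untreated thymocytes. For Lcn2 the effect was -2.17 in irradiated and -4.24 in untreated thymocytes, a difference of 2.07 ± 0.23 (limma adjusted p = 8.37e-05), with untreated levels of 7.26 and 6.84 in KO untreated thymocytes, against 11.35 and 11.24 in WT untreated thymocytes. For Lcn2 the WT untreated arrays were the highest of the 10 thymocyte arrays. Of the 140 genes 14 passed the filter only through the WT untreated arrays and 9 only through KO irradiated arrays, and of the 100 genes 16 passed only through the KO untreated arrays and 3 only through WT irradiated arrays. For such genes the choice bears on the difference, so no test is given. Among them S100a8 had effects of -0.99 in irradiated and -3.56 in untreated thymocytes, with untreated levels of 5.91 and 6.05 in KO untreated thymocytes, against 9.64 and 9.45 in WT untreated thymocytes, and S100a9 and Mmp8 had differences of effect of 2.38 and 2.33.

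Other genes had a larger KO effect in the irradiated than in the untreated pair. Id2 had a KO effect of 1.23 in irradiated and 0.10 in untreated thymocytes, a difference of 1.13 ± 0.18 (limma adjusted p = 0.00234). Cd69 had 0.86 and 0.00, a difference of 0.86 ± 0.16 (limma adjusted p = 0.00901), and Lyz2 had 2.06 and 0.57, a difference of 1.48 ± 0.19 (limma adjusted p = 0.000453). Cxcl2 had 1.66 and -0.21. The antibody light chain genes Igk and Igl-V2, which stand for families of similar segments, had differences of 2.20 and 2.16. Cxcl2 and Igl-V2 passed the filter only through KO irradiated arrays. Cdkn1a was lower in KO irradiated thymocytes (-0.48) and had an effect of 0.43 in untreated ones, a difference of -0.91 ± 0.18 (limma adjusted p = 0.0125). Its untreated levels were 8.77 and 8.51 in KO untreated thymocytes, against 8.12 and 8.30 in WT untreated thymocytes. The differences for Cd69 and Cdkn1a were not called without WT untreated 1 or KO untreated 1.

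Among the 100 negative differences, the haemoglobin gene Hbb-b1 had effects of 2.21 in irradiated and 4.13 in untreated thymocytes, a difference of -1.92 ± 0.34 (limma adjusted p = 0.00596). The embryonic globin gene Hbb-y, Alb (serum albumin) and Ppbp (a platelet chemokine) passed the filter only through the KO untreated arrays. As a description, Hbb-y had effects of -0.15 in irradiated and 2.995 in untreated thymocytes, and Alb and Ppbp had differences of -2.12 and -2.11. Untreated levels of Hbb-b1 were 12.76 and 12.48 in KO untreated thymocytes, against 8.67 and 8.31 in WT untreated thymocytes. The AP-1 gene Jun had effects of 0.43, not called in irradiated thymocytes without WT irradiated 1, WT irradiated 3, KO irradiated 1 or KO irradiated 3, and 2.04 untreated, a difference of -1.61 ± 0.21 (limma adjusted p = 0.000406). Spib had -0.93 and 0.44, a difference of -1.37 ± 0.19 (limma adjusted p = 0.000737), and Pls3, an actin bundler that also passed only through the KO untreated arrays, had -1.29. Among the largest rises and falls, Esrp1, Eya1 and Rnf39 had irradiated effects above their untreated ones by 0.86, 0.97 and 0.80, Esrp1 and Rnf39 not being called without KO untreated 1, and Gpr56 and Slc38a3 had differences of -1.11 and -1.26. Gene by gene, Il18r1 (4.25 untreated), Cd163l1 (4.04) and Maf (3.36) rose in both settings, and for these the difference of effects did not pass.

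**Figure D5:**
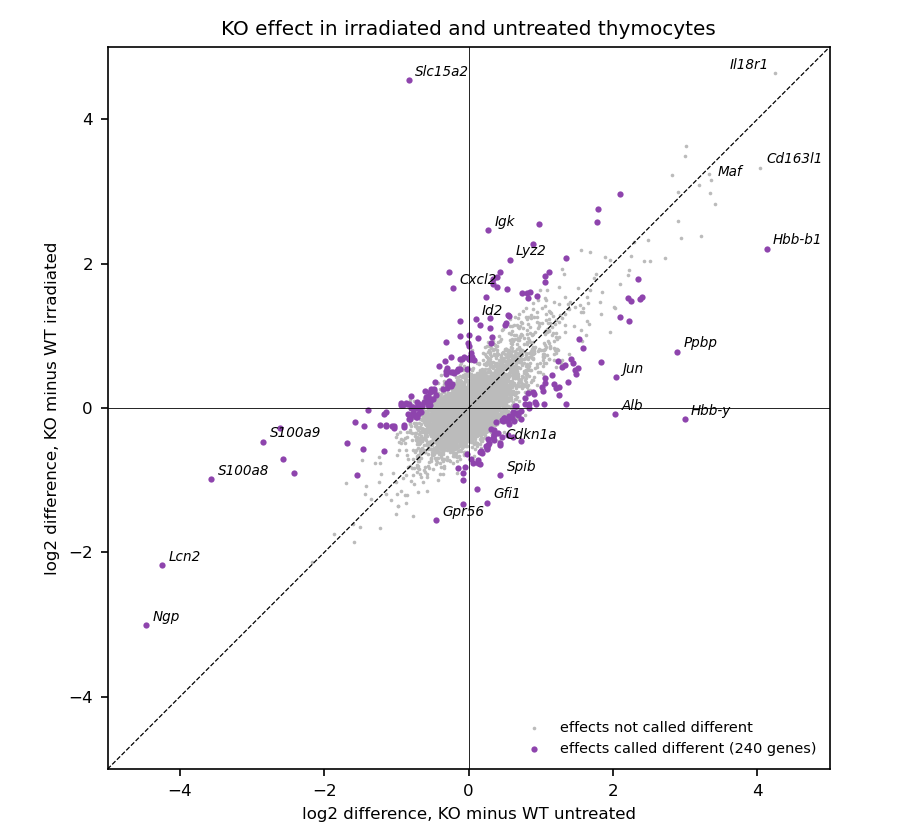
Log2 difference between KO and WT in irradiated thymocytes (y axis) against that in untreated thymocytes (x axis) for the genes tested, with the 240 genes whose effects were called different in purple and the dashed line marking equal effects. Slc15a2 stands alone at the top left of the centre, Ngp and Lcn2 lie at the lower left and Hbb-y and Alb at the right near 0 on the y axis.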

How the data were processed

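RNA was purified with a Qiagen kit and, per the labels, amplified with a NuGEN kit, labelled with biotin and hybridised to 1-colour arrays. The deposited table holds log2 signal values of 182058 probe sets, from 3.37 to 15.01, as the authors processed them. The sources used here do not state the log base or how background, normalization and probe summary were handled, so log2 is read from the values, and a fold holds only if the base is 2.

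Probe sets were named from GEO's platform annotation: 167016 name 1 gene, 3388 several and 11654 none. Only the first were used. The mean over the 20 arrays was subtracted from each, and a gene's value was the median of its probe sets on an array plus the mean of their means, for 19607 genes. The test took genes that exceeded the 40th percentile of the array on 2 or more of the 10 thymocyte arrays, which left 12747, of which 11105 symbols are current in RefSeq (GRCm38.p6), the source of the start regions. limma 3.58.1 in R 4.3.3 with the data.table package, version 1.17.8, fitted 1 mean per thymocyte group with Benjamini-Hochberg adjustment over all genes tested. The 2 untreated groups enter the fit for the shared estimate of the spread and for the difference of effects. The plots were made with matplotlib 3.10.9 under Python 3.11.15. No depth applies to arrays, and their number, 2 or 3 a group, limits the precision. On data simulated for KO against WT irradiated thymocytes with all 12747 genes, 49 of 67 genes changed by 0.5, 67 of 67 changed by 1 and 66 of 66 changed by 2 on the log2 scale were called, with 8 false calls. Only these genes were changed, and the noise was normal and independent for each gene and array. Deviations that genes share on a real array were not simulated, so these counts do not give the error rate of the real data.

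The genes named are the 15 largest rises and 15 largest falls that passed the test without overlap, leaving out predicted genes, up to 6 members of each list by smallest p, the 8 largest differences of effect each way, a short list of p53, survival and T cell genes, and the members of small counts. The lists and members were chosen with earlier results of these data known. Alternatives were quantile normalization, other filters, the mean of the probe sets, leaving out 1180 repeated probe sets, another variance model, a replicate block, other sets of arrays and each array left out.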

Additional observations from a re-analysis of the deposited data

Results flagged for a closer look

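For 45 of the genes named and 5 Gfi1 probe sets the KO effect differed between the irradiated and the untreated pair of groups, by the test of that difference in limma. Values are the KO minus WT difference in irradiated thymocytes minus that in untreated thymocytes, on the log2 scale. Of the 12747 genes tested, 240 passed after adjustment over all of them. Whether both KO groups carry the same Gfi1 allele is not stated, so irradiation cannot be told apart from any other difference between the groups. S100a8, S100a9, Mmp8, Ltf and Retnlg passed the filter on dim genes only through WT untreated arrays, Hbb-y, Alb, Ppbp and Pls3 only through KO untreated arrays, Cxcl2, Igl-V2 and Il1b only through KO irradiated arrays and Slc38a3 only through WT irradiated arrays, so their values are a description.

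Among carriers and neutrophil genes, Slc15a2 had 5.36, S100a8 2.57, S100a9 2.38, Mmp8 2.33, Lcn2 2.07, Ltf 1.87, Retnlg 1.51 and Ngp 1.46, while Mpo had -0.81. Among immunoglobulin genes, Igk had 2.20 and Igl-V2 2.16. Among genes of myeloid cells and inflammation, Cxcl2 had 1.88, Lyz2 1.48, Lyz1 1.45, Ccl3 1.37, Il1b 0.71, Cybb 0.67, Selp 0.66, Birc3 0.65 and H2-Aa 0.65. Among T cell genes, Id2 had 1.13, Cd69 0.86, Klf2 0.71, Ccr4 -0.61 and Il2ra -0.71. Among the other genes with a positive difference, Eya1 had 0.97, Spo11 0.90, Esrp1 0.86, Rnf39 0.80 and Mxd4 0.69.

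The negative differences were -3.15 for Hbb-y, -2.12 for Alb, -2.11 for Ppbp, -1.92 for Hbb-b1 and -1.20 for Alas2, all genes of blood or liver. Jun had -1.61, Spib -1.37, Pls3 -1.29, Slc38a3 -1.26, H19 -1.24, Asns -1.19, Gpr56 -1.11, Cdkn1a -0.91 and Hsph1 -0.87. Gfi1 as a gene had -1.57. Its probe sets 2 and 3 had 7.53 (limma adjusted p = 5.31e-07) and 3.81 (limma adjusted p = 3.1e-05), and its probe sets 5, 6 and 7 had -2.96 (limma adjusted p = 0.000447), -2.43 (limma adjusted p = 0.0217) and -3.47 (limma adjusted p = 0.000514).

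Of the 45 genes, 30 were called in each fit that left out 1 array and tested the gene. Esrp1, Rnf39 and Hsph1 were not called without KO untreated 1, and Cd69 and Cdkn1a without WT untreated 1 or KO untreated 1. Klf2, Mxd4, Birc3 and Il2ra were not called without any 1 of the 4 untreated arrays, and Klf2 also not without KO irradiated 3. Il1b was not called without WT untreated 1, WT untreated 2 or KO untreated 1. Cybb, Selp, H2-Aa, Ccr4 and Mpo were called in 1 to 3 of the 10 fits.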

How the results depend on the processing

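No gene named changed direction while called in any setting. Of 12747 genes, 1035 were called higher and 868 lower in KO irradiated thymocytes. With other scaling, filters, summaries or variance models the counts were 806 to 1149 higher and 680 to 957 lower. With only the 6 irradiated arrays 810 were higher and 560 lower, and with all 20 arrays, where tumours share in the estimate of the spread, 119 were higher and 29 lower. Leaving out 1 array gave 863 to 1074 higher and 562 to 1109 lower. For the difference of effects, leaving out 1 array gave 42 to 172 positive and 19 to 138 negative calls, and all 20 arrays gave 4 and 2. The arrays share only replicate numbers: same-numbered KO and WT irradiated arrays had deviations that correlated at 0.22, -0.04 and -0.34, and untreated ones at 0.12, so the numbers were not taken as a pairing. With the replicate block 958 were higher and 750 lower, and the difference of effects was called for 79 positive and 61 negative genes. The causes of these changes were not tested. The genes that changed sign were called in none of these fits. With quantile normalization Alb had 0.0398, Cd8a 0.0078, Mdm2 -0.0225 and Sox13 0.0211, and with the mean of the probe sets Alb had 0.0111 and Bcl2 -0.0136. Leaving out 1 array, Mdm2 ran from -0.0552 to 0.0636, Sox13 from -0.118 to 0.0589, Cd8a from -0.0358 to 0.0317, Bcl2 from -0.0289 to 0.1005, Rag2 from -0.0266 to 0.0784 and Pls3 from -0.0406 to 0.124. Gfi1 ran from -1.44 to -0.72, the last with the mean of its probe sets. Among the other genes named, 420 calls were lost over all alternatives, 158 of them with all 20 arrays, 5 were gained and 3586 values kept direction and call. Among the lists, the fit of the 6 irradiated arrays alone called fewer members: 10 replication, 2 mitosis, 6 DNA repair, 5 neutrophil granule and 3 T cell receptor signalling genes lower, and 7 macrophage and dendritic, 5 B cell and 6 NK and cytotoxic genes higher. No list with a median beyond 0.1 changed the sign of its median under other scaling, filters, summaries or variance models. Mmp8 passed with the mean of the probe sets (-0.38, limma adjusted p = 0.0298). The array number, 3 a group, limits what small differences can be called.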

Other observations

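For 2 further genes, named after their values were seen, probe sets of 1 gene moved both ways in the irradiated KO. Sgip1 has 21 probe sets, of which 3 were called higher and 5 lower, with differences from -1.75 to 3.00 and -0.21 for the gene. Syne1, a large protein of the nuclear envelope, has 149, of which 2 were called higher and 49 lower, with -0.63 for the gene.

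Slc15a2 levels in the thymic tumours, which enter no comparison here, were 7.76, 7.05 and 9.74 in KO tumours labelled ENU, against 5.34, 8.75 and 5.79 in WT tumours labelled ENU. They were 10.34 and 10.41 in KO tumours labelled Notch, against 10.86 and 10.59 in WT tumours labelled Notch. By chromosome, the share of genes called ran from 11.3% on chromosome 7 to 20.1% on chromosome 1, against 14.9% of all genes tested.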
